A study of Bos taurus with 11 samples.

Results

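The closely related miRNAs bta-miR-103 and bta-miR-107 are described here in the mammary gland (MG) of lactating Holstein and Montbéliarde cows. They were taken by their names from the deposited count table, in which they are 2 of 796 listed miRNAs, and both were among the 550 miRNAs tested between breeds. Small RNA was sequenced from MG biopsies of 5 Holstein and 6 Montbéliarde cows, with 1 library per cow. According to the study's methods, all cows were in mid-lactation and received the same diet, and breed is the only factor named in the labels that separates the groups. The age, lactation number and sire of each cow are not given in the sources used here. Holstein libraries had total counts of 7431936 to 16808976, and Montbéliarde libraries of 6087865 to 11395785. The library tags run from CNLX1 to CNLX9 in Holstein and from CNLX13 to CNLX23 in Montbéliarde, and if they follow an order of preparation, that order and breed cannot be told apart.

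Pantothenate kinases (PANK) catalyse the first step in the synthesis of coenzyme A, the carrier of acyl groups in fatty acid synthesis and oxidation. In vertebrates, introns of the *PANK* genes carry *miR-103* and *miR-107*, so that host gene and miRNA can be made from the same transcript. The mature miRNAs are nearly identical, differ in a single base close to the 3′ end, and share the seed that pairs with target mRNAs. Reported targets include *CAV1*, which takes part in insulin signalling, and *DICER1*, which processes miRNA precursors, and *miR-103* has been linked to milk fat accumulation in the goat MG. In the RefSeq annotation (ARS-UCD2.0), a later assembly than the one used by the authors, *MIR107* lies inside *PANK1*, *MIR103-2* inside *PANK2* and *MIR103-1* inside *PANK3*. The row of *miR-103* therefore stands for the mature product of both *MIR103* genes, and that of *miR-107* for 1 gene. Host gene mRNA was not measured, and a read that ends before the differing base matches both miRNAs. How such reads were counted is not given in the sources used here.

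Both miRNAs were read in every library, and *miR-103* was always the more abundant. Its normalized read count, the raw count divided by the size factor of the library, averaged 20396 over the 11 libraries, which ranked it 44 by mean count among the 754 miRNAs with a read, between *let-7c* and *miR-25*. The mean of *miR-107* was 2182 at rank 89, between *miR-28* and *miR-199b*. In single libraries *miR-103* ranked 37 to 53, and *miR-107* 83 to 97. The sum of both was 0.252% ± 0.0381 (SD, n = 5) of all counted reads for Holstein, against 0.217% ± 0.0554 (SD, n = 6) for Montbéliarde. This summed share was 0.124% in library CNLX15 and 0.306% in CNLX9, the lowest and the highest of all. The difference of -0.0344 percentage points did not exceed the variation among cows (p = 0.286 in a two-sided exact permutation test, adjusted p = 0.450 over the 4 exact tests made), and 4 of 6 Montbéliarde libraries were below the Holstein mean. It was -0.0157 without CNLX15 and -0.0208 without CNLX9.

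The level of *miR-103* was lower on average in Montbéliarde, without passing the test, and a single cow contributed much of the difference. In Holstein its normalized read counts were 23671 in CNLX1, 21232 in CNLX3, 20263 in CNLX5, 20139 in CNLX7 and 27010 in CNLX9. Those of Montbéliarde were 20021 in CNLX13, 12241 in CNLX15, 22181 in CNLX17, 19898 in CNLX19, 16448 in CNLX21 and 21249 in CNLX23. The breeds overlapped, with CNLX9 above and CNLX15 and CNLX21 below the range of the remaining cows. The mean was 22463 ± 2911 (SD, n = 5) for Holstein cows, compared with 18673 ± 3704 (SD, n = 6) for Montbéliarde cows. The log2 fold change (log2FC), Montbéliarde over Holstein, was -0.27 (SE 0.16, 95% interval -0.62 to 0.08), and the quasi-likelihood test of edgeR gave an unadjusted p of 0.123 and an adjusted p of 0.458. Without CNLX15 it was -0.09, with an adjusted p of 0.809 from the same edgeR test, and the mean of the 5 other Montbéliarde libraries was 19960 ± 2176 (SD).

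For *miR-107*, the minor member of the pair, the sign of the log2FC was the opposite one. Its normalized read counts in Holstein were 1979 in CNLX1, 2002 in CNLX3, 1806 in CNLX5, 1819 in CNLX7 and 2643 in CNLX9. In Montbéliarde they were 2648 in CNLX13, 1896 in CNLX15, 2649 in CNLX17, 2415 in CNLX19, 1944 in CNLX21 and 2196 in CNLX23. The breeds overlapped again: CNLX9 was as high as the highest Montbéliarde libraries, and CNLX1 and CNLX3 were above CNLX15 and CNLX21. The other 4 Holstein libraries lay between 1806 and 2002. Holstein cows averaged 2050 ± 343 (SD, n = 5), and Montbéliarde cows 2291 ± 334 (SD, n = 6). The log2FC was 0.16 (SE 0.16, 95% interval -0.18 to 0.49), and the edgeR test gave an unadjusted p of 0.337 and an adjusted p of 0.704. It was 0.29 without CNLX15 and 0.26 without CNLX9, with adjusted p of 0.385 and 0.548 from the same edgeR test. Neither member was thus among the 0.364% of tested miRNAs with an adjusted p of at most 0.05 (2 of 550), nor among the 14.2% with an unadjusted p of at most 0.05 (78 of 550), in the same edgeR fit. The intervals allow a change of either sign for each member. Because tissue was sequenced in bulk, fewer cells that express a miRNA and less of it per cell cannot be told apart.

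**Figure D1:**
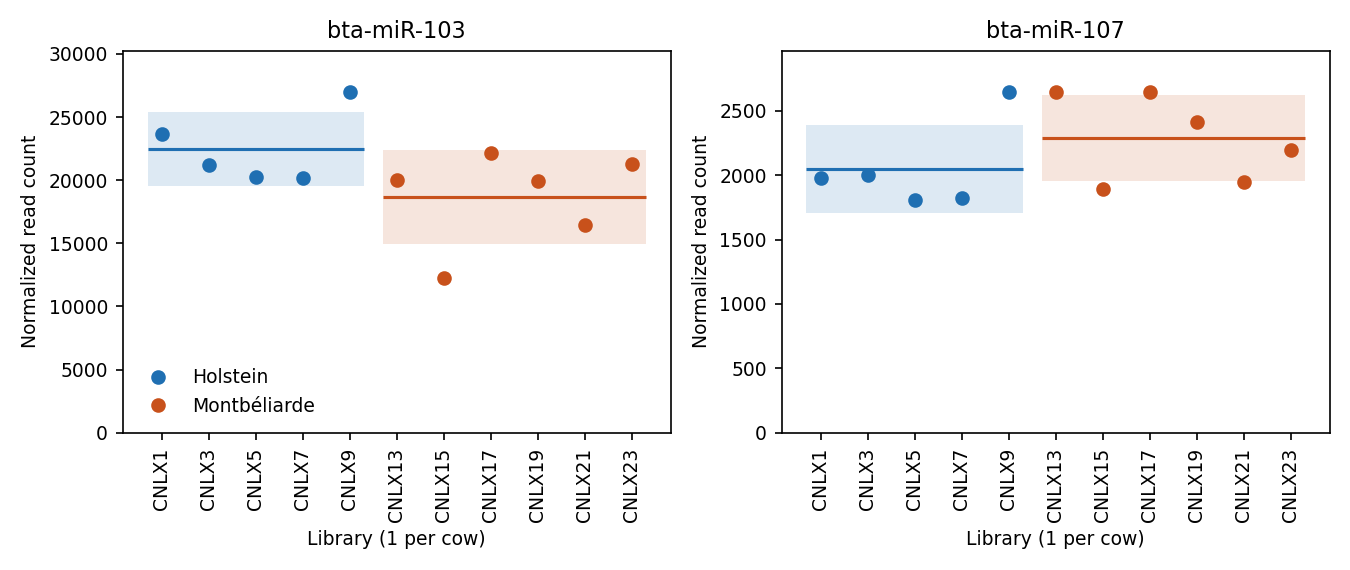
Normalized read counts of bta-miR-103 (left) and bta-miR-107 (right) in each library, with 1 point per cow; lines are breed means and shaded bands are 1 SD to each side (5 Holstein and 6 Montbéliarde libraries). The breeds overlap for both miRNAs, with CNLX15 lowest for miR-103 and CNLX9 high for both.

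The proportion between the members, in contrast, separated the breeds in every library. It is a ratio of counts of the same library and does not depend on the normalization. It can depend on how reads that match both members were counted. On average, the paper lists more too short reads and a lower output rate after cleaning for Montbéliarde than for Holstein. Whether this read cleaning bears on the ratio was not tested. In Holstein, *miR-107* made up 7.71% of the reads of the pair in CNLX1, 8.62% in CNLX3, 8.18% in CNLX5, 8.28% in CNLX7 and 8.91% in CNLX9. It made up 11.7% in CNLX13, 13.4% in CNLX15, 10.7% in CNLX17, 10.8% in CNLX19, 10.6% in CNLX21 and 9.37% in CNLX23, all of them Montbéliarde and all above the highest Holstein library. Expressed otherwise, each read of *miR-107* was matched by 11.02 ± 0.660 (SD, n = 5) reads of *miR-103* in Holstein, but by 8.13 ± 1.07 (SD, n = 6) in Montbéliarde. The mean log2 ratio of *miR-107* to *miR-103* was -3.46 ± 0.09 (SD, n = 5) and -3.01 ± 0.19 (SD, n = 6), respectively. The difference of 0.45 on the log2 scale, a 1.36-fold higher ratio in Montbéliarde, was larger than the variation among cows (p = 0.00433 in a two-sided exact permutation test, adjusted p = 0.0173 over the 4 exact tests). The ratio was above the Holstein mean in 6 of 6 Montbéliarde libraries. This test also compares the breed effects of the members with each other, since their log2FC differ by the change of their ratio.

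**Figure D2:**
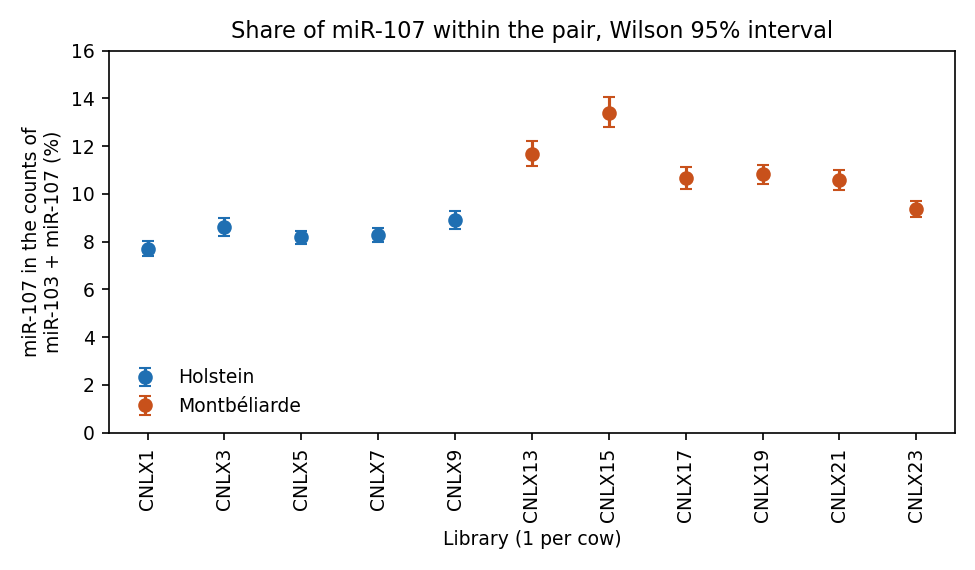
Share of bta-miR-107 in the summed counts of bta-miR-103 and bta-miR-107 (%) in each library, with Wilson 95% intervals for the counting error; the y axis starts at 0. The 5 Holstein libraries lie between 7.71% and 8.91% and the 6 Montbéliarde libraries between 9.37% and 13.4%.

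Counting error was small beside the differences between most cows. The raw counts ranged from 9796 to 33582 for *miR-103* and from 1517 to 2993 for *miR-107*, and the standard error that counting gives to the log2 ratio was at most 0.04 in any library. Between the nearest libraries of the breeds the gap was nevertheless narrow. The Wilson 95% interval was 8.55 to 9.29% in CNLX9 and 9.04 to 9.70% in CNLX23, so that these intervals overlap. They cover counting error only, as PCR copies were not told apart. The ratio varied more between Montbéliarde cows, where CNLX15 was farthest from Holstein, than between Holstein cows. Leaving out 1 library at a time, the difference in log2 ratio was between 0.38 and 0.50, with an exact permutation p of at most 0.00794. Because the breeds do not overlap, leaving out a library could not lose the call, so that these p-values add no support.

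Separated ratios were not rare in these libraries. Among the 214 miRNAs with a mean normalized read count of at least 100 and a read in every library, 1005 of 22791 pairs, or 4.41%, had log2 ratios that did not overlap between breeds. The size of the breed difference was smaller than that of *miR-107* to *miR-103* in 57.3% of all 22791 pairs, overlapping or not, with a median of 0.38. Of the 213 pairs formed by each member, 6 did not overlap for *miR-103* and 12 for *miR-107*. For single miRNAs, normalized read counts did not overlap between breeds in 2% of those tested (11 of 550). This background was computed after the ratio of the pair had been seen.

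Depth and cell type markers were set beside the ratio. Among the libraries within the depth range that both breeds cover, 3 Holstein and 4 Montbéliarde, the shares were still separate, at most 8.91% and at least 9.37%, and the difference in log2 ratio was 0.42 (exact permutation test, p = 0.0571, where 0.0286 is the smallest p possible). Within the 6 Montbéliarde libraries, Pearson's r between the log2 total count and the log2 ratio was -0.34 (exact permutation p = 0.514, adjusted p = 0.518 over 3 relations) and Spearman's rho was -0.54 (exact permutation p = 0.297). The log2 normalized read count of *miR-107* itself had r of -0.79 with the log2 total count in these 6 libraries (exact permutation p = 0.0681, adjusted p = 0.204) and rho of -0.77 (exact permutation p = 0.103), and that of *miR-103* had r of -0.32 (exact permutation p = 0.518, adjusted p = 0.518). Of 7 epithelial marker miRNAs, 6 were in the table under their listed names, and each was read in all libraries. Their summed level in CPM, a count scaled by the TMM-adjusted library size, spanned 37969 to 46060 over the Holstein libraries. In Montbéliarde it spanned 17715 to 47890, and 5 of 6 libraries were below every Holstein library. CNLX15 had the lowest epithelial sum and CNLX13 the highest. The share of *miR-107* in the pair was above every Holstein library in both, as in all 6 Montbéliarde libraries. The relation of the ratio to the epithelial sum was not tested.

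The 5 stromal markers, all read in every library, summed to 153730 to 226268 CPM in Holstein. Nearly all of this sum was *miR-143*, with a mean normalized read count of 2339520, against 7991 for *miR-199a-3p*, the next of them. In Montbéliarde the sum was 195521 CPM in CNLX23 and above every Holstein library in the other 5, up to 378064 CPM in CNLX15. The relation of the ratio of the members to the stromal sum was not tested. The sums of the 5 leukocyte markers were 1827 to 2905 CPM for Holstein and 1748 to 3854 CPM for Montbéliarde, with CNLX15 highest again. For the 2 endothelial markers the ranges were 25476 to 34172 CPM and 24321 to 30312 CPM, and for the 3 erythroid markers 2544 to 4094 CPM and 2525 to 5469 CPM. No marker found in the table was at 0 in any library. By mean normalized read count, *miR-142-5p* (21559) led the leukocyte markers, with *miR-155* (1181) next. The endothelial sum was led by *miR-126-5p* (252016, against 22878 for *miR-126-3p*) and the erythroid sum by *miR-486* (31855, with *miR-451* at 2288). *miR-141* (243915) led the epithelial markers. Each sum thus follows mostly 1 miRNA rather than several markers alike. With the epithelial sum as a covariate in edgeR, the log2FC was -0.05 for *miR-103* and 0.32 for *miR-107*, and with the total count as a covariate they were -0.36 and 0.005. The difference between the members was 0.37 in either fit. The part of tissue composition in the levels was not tested beyond these fits.

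Within breeds, the members rose and fell together across cows. On log2 CPM after TMM scaling, taken as deviations from the breed means because the ratio differs between breeds, Pearson's r between *miR-103* and *miR-107* was 0.82 over the 11 libraries (exact permutation within breeds, p = 0.00326, adjusted p = 0.0221). Spearman's rho was 0.85 (exact permutation within breeds, p = 0.00368, adjusted p = 0.0221). Without CNLX15 and CNLX9, the libraries farthest from the median of *miR-103*, r was 0.58 (exact permutation p = 0.128, adjusted p = 0.331) and rho was 0.50 (exact permutation p = 0.165), so that the call was lost with these 2 libraries. Within Montbéliarde alone r was 0.84 (exact permutation p = 0.0347, n = 6, adjusted p = 0.139) and rho was 0.60 (exact permutation p = 0.242). No coefficient was computed for the 5 Holstein libraries alone. With the breeds pooled, r was 0.46 (permutation p = 0.148, adjusted p = 0.331) and rho was 0.29 (permutation p = 0.384, adjusted p = 0.576), and without the same 2 libraries r was -0.07 (permutation p = 0.861). The relation was computed in 6 sets, with both coefficients adjusted together, and the deviations from breed means were added after the pooled values had been seen. Both miRNAs share the scaling of their library.

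**Figure D3:**
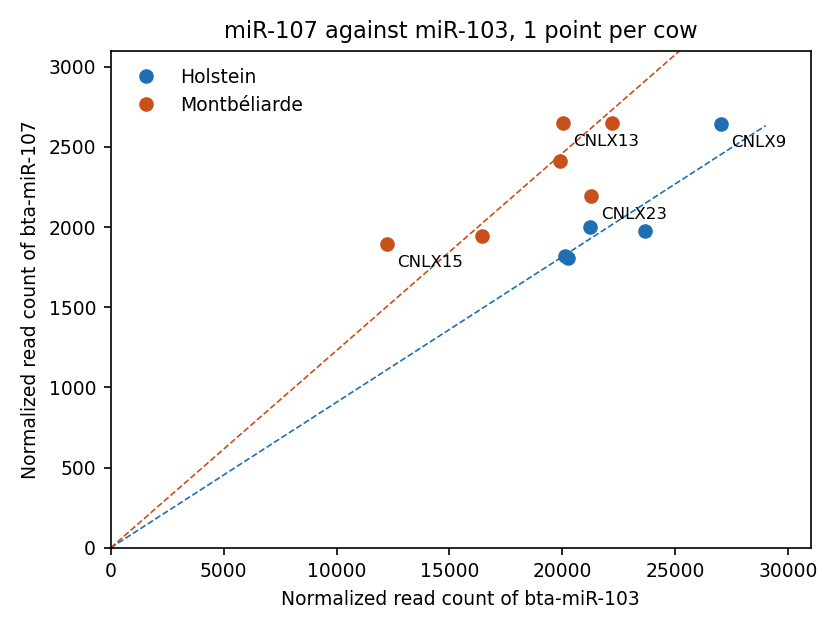
Normalized read count of bta-miR-107 (y axis) against that of bta-miR-103 (x axis), with 1 point per cow, both axes starting at 0; each dashed line has the slope given by the mean of *miR-103* per *miR-107* in the breed, 11.02 in Holstein and 8.13 in Montbéliarde. Every Montbéliarde point has more miR-107 for its miR-103 than any Holstein point, with CNLX23 the nearest to the Holstein line.

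Each member was closer in pattern to other miRNAs than to its partner when the breeds were pooled. Likeness was measured by the SD over the 11 libraries of the log2 ratio of counts, which is low when the proportion of a pair is stable, among 213 miRNAs. For *miR-103* the lowest SD was 0.11 with *miR-374c*, followed by 0.15 with *miR-1839*, 0.16 with *miR-660*, 0.18 with *miR-378* and 0.18 with *miR-193a-5p*. The gene of *miR-378* is known to lie in an intron of *PPARGC1B*, a coactivator of mitochondrial metabolism. With *miR-107* the SD was 0.28, at rank 35, against a median of 0.45 over all miRNAs compared. This SD includes the breed difference of the ratio described above. Within breeds the SD of the same log2 ratio was 0.09 in Holstein and 0.19 in Montbéliarde, and ranks within breeds were not computed. For *miR-107* the closest miRNAs were *miR-92a* (SD of 0.16), *miR-182* (0.16), *miR-339b* (0.18), *let-7f* (0.21) and *miR-425-5p* (0.21), and *miR-103* was at rank 32. None of these 5 was among the 5 closest to *miR-103*. All such values share the depth and composition of the same libraries and describe them without a test.

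Because *miR-103* and *miR-107* are often proposed as reference miRNAs in RT-qPCR, their spread was compared with that of the controls which the study used for RT-qPCR, *miR-26a*, *miR-92a* and *miR-191*. The SD of log2 CPM over the 11 libraries was 0.22 for *miR-107*, the 27th lowest of 214 miRNAs, and 0.30 for *miR-103*, the 65th lowest. It was 0.24 for *miR-92a*, 0.39 for *miR-26a* and 0.39 for *miR-191*, with a median of 0.39 over the 214 miRNAs. The highest normalized read count was 1.47 times the lowest for *miR-107* and 2.21 times the lowest for *miR-103*. Without CNLX15 the SD of *miR-103* was 0.16. Within breeds the SD of *miR-103* was 0.17 in Holstein and 0.33 in Montbéliarde, and that of *miR-107* was 0.21 in both. In Holstein it was 0.15 for *miR-92a*, 0.12 for *miR-191* and 0.22 for *miR-26a*, with a median of 0.21 over the 214 miRNAs. In Montbéliarde these controls had 0.22, 0.42 and 0.51, with a median of 0.43. Within Holstein, *miR-92a* and *miR-191* thus varied less than both members, and *miR-107* was at the median.

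**Figure D4:**
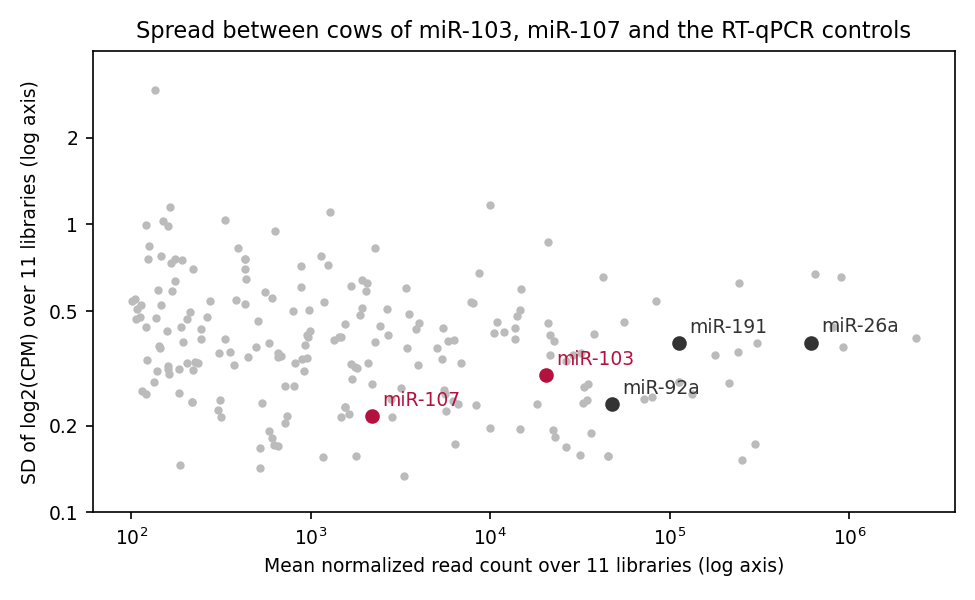
SD of log2(CPM) over the 11 libraries (y axis, log scale) against the mean normalized read count (x axis, log scale) for the 214 miRNAs with a mean of at least 100 and a read in every library; red points are the members, black points the RT-qPCR controls and grey points the other miRNAs. The SD of miR-107 (0.22) and of miR-103 (0.30) lie below the median of 0.39.

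Relative to the geometric mean of the 3 controls, *miR-103* was at -2.70 ± 0.22 (SD, n = 5) on the log2 scale in Holstein, with -2.96 ± 0.58 (SD, n = 6) for Montbéliarde. The difference of -0.26 was within the spread (exact permutation test, p = 0.450, adjusted p = 0.450), with 3 of 6 Montbéliarde libraries below the Holstein mean, and it was -0.04 without CNLX15. CNLX15 was lowest at -4.08, and the other Montbéliarde libraries were at -3.05 or above. The corresponding levels of *miR-107* were -6.16 ± 0.26 (SD, n = 5) and -5.97 ± 0.42 (SD, n = 6), and the difference of 0.18 was within the spread as well (exact permutation test, p = 0.424, adjusted p = 0.450), although it reached 0.34 without CNLX15 (exact permutation test, p = 0.0476, not adjusted). The choice of control set the outcome, since the controls themselves had log2FC of different sign, 0.30 for *miR-92a*, 0.14 for *miR-26a* and -0.40 for *miR-191* (adjusted p from edgeR of 0.348, 0.819 and 0.348). Against *miR-92a* alone the difference of *miR-103* was -0.59 (exact permutation test, p = 0.00433, not adjusted), and against *miR-191* alone it was 0.15. For *miR-107* the corresponding differences were -0.14 and 0.60 (exact permutation tests, p = 0.169 and p = 0.0628, not adjusted).

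The members belong to a wider group of miRNAs with a similar 5′ end, the family of *miR-15* and *miR-107*, in which *miR-15* and *miR-16* are known for restraining the cell cycle. Of 8 listed members of that family outside the pair, 7 were tested, and 1, *miR-16a*, passed the threshold and was lower in Montbéliarde, against 0.364% of all tested miRNAs. The normalized read count of *miR-16a*, 14054 ± 1743 (SD, n = 5) for Holstein, was 8193 ± 1320 (SD, n = 6) for Montbéliarde. The edgeR test gave a log2FC of -0.79 with an SE of 0.15 and an adjusted p of 0.0370. Over 22 alternatives its log2FC stayed between -0.87 and -0.68, while the adjusted p was above the threshold in 11 of them, 7 of which left out a library. The adjusted p was lowest with DESeq2, at 1.35e-04, and highest in edgeR with the epithelial covariate, at 0.420. For *miR-16b* the log2FC was -0.43 (SE 0.16), with an unadjusted p of 0.0152 and an adjusted p of 0.231 from the edgeR test without a covariate. The remaining 5 had unadjusted p-values above 0.05 and log2FC between -0.21 and 0.11, and *miR-503-5p* had too few reads to be tested. The log2FC was below 0 in 6 of the 7, with a median of -0.16, against 262 of 550 below 0 and a median of 0.03 over all tested miRNAs. In sign *miR-103* was with these 6 and *miR-107* with *miR-15b*.

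Among 5 other miRNAs whose genes lie in introns of regulators of metabolism or of phosphatase genes, none passed the test, adjusted or not. Over all tested miRNAs 0.364% passed adjusted and 14.2% unadjusted, and for a list of 5 a count of 0 lies near these shares. The 5 were *miR-33a* and *miR-33b*, hosted by the sterol regulators *SREBF2* and *SREBF1*, *miR-378*, and *miR-26a* and *miR-26b*, hosted by *CTDSP* phosphatase genes. Their log2FC ranged from -0.21 for *miR-26b* to 0.52 for *miR-33b*, with a median of -0.02. The normalized read counts of *miR-33b*, the most variable of them between Montbéliarde cows, averaged 713 ± 70.7 (SD, n = 5) for Holstein cows, against 1018 ± 491 (SD, n = 6) for Montbéliarde cows, with an adjusted p of 0.479 from edgeR.

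**Figure D5:**
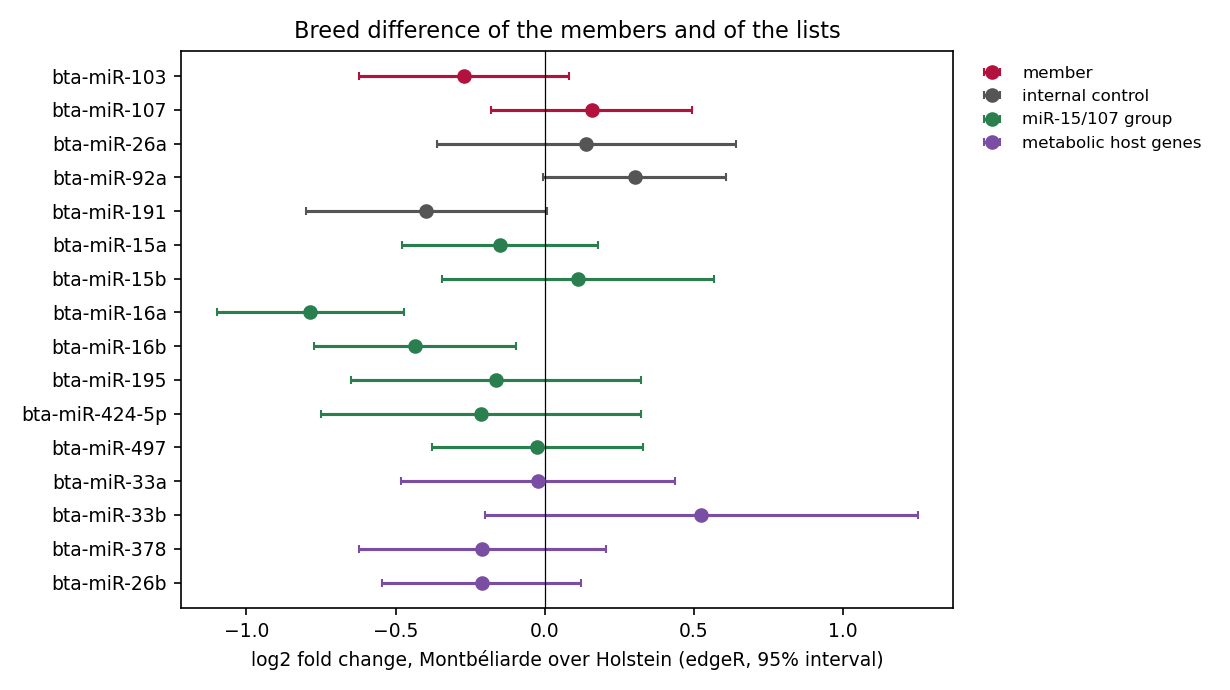
Log2FC of Montbéliarde over Holstein (x axis) with its 95% interval from edgeR for the members, the RT-qPCR controls, the family of miR-15 and miR-107 (green) and the miRNAs of metabolic host genes (miR-26a is drawn once, with the controls). The intervals of bta-miR-103 and bta-miR-107 include 0 and lie on opposite sides of it at their centres, -0.27 and 0.16.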

How the data were processed

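Small RNA of 11 mammary biopsies was analysed, grouped by the breed in the sample records. The authors trimmed adaptors, kept reads in a size range and quantified them with ncPRO-seq and miRDeep2 against btau5.0.1 and miRBase. The authors deposited unnormalized counts of reads for each mature miRNA. The normalized read counts, a deposited signal, equal those counts over a size factor per library (the submitters' processing notes name DESeq2 1.18.1). The authors' breed means, log2 fold changes and p-values were not used.

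Breeds were compared on counts in R 4.3.3 by edgeR 4.0.16 (TMM, glmQLFit with robust fitting, glmQLFTest) on miRNAs with at least 10 counts over all libraries, with Benjamini-Hochberg adjustment and a threshold of 0.05. DESeq2 1.42.0 and limma 3.58.1 were alternatives. The standard error was derived from the F statistic. Ratios and shares were given two-sided exact permutation tests over 462 assignments of the libraries to 5 and 6 (smallest p 0.00216), and correlations with 100000 permutations, or all permutations for 6 libraries and within breeds. Fits were tested on simulated data. Depth leaves a floor of 3 counts, at most 4.93e-05% of a library. P-values of the breed comparisons set a difference against the variation among these cows, with 1 library each.

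Named were the members, the 3 RT-qPCR controls, the listed miRNAs called at an unadjusted p of 0.05, and the 5 miRNAs most like each member. The members, lists and alternatives were chosen with earlier results of these data known. Mature sequences were not used here, so that a rule on shared seeds was not applied, and *miR-33b* was named after its values were seen. RT-qPCR values were not analysed here.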

Additional observations from a re-analysis of the deposited data

Results flagged for a closer look

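A single library stood apart from the others of its breed in 2 of the 12 sets of values examined, a gap for which chance flags about 1 set in 20. The normalized read count of *miR-107* was 2643 in the Holstein library CNLX9, while the other 4 Holstein libraries had at most 2002. CNLX9 was also the Holstein library with the highest *miR-103*. Its share of *miR-107* in the pair, 8.91%, was the highest of the Holstein libraries, with 8.62% in CNLX3 next, and below every Montbéliarde library. The level of *miR-103* relative to the RT-qPCR controls was -4.08 on the log2 scale in the Montbéliarde library CNLX15, the library with the lowest epithelial and the highest stromal marker sums. The part of either in these values was not tested.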

How the results depend on the processing

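The log2FC of *miR-103* and *miR-107* kept their sign and did not pass the threshold in any of 22 alternatives each, with adjusted p from edgeR, DESeq2 or limma between 0.276 and 0.982 and between 0.385 and 0.993. Their difference ranged from 0.37 to 0.48. The ratio of the members kept its call in 13 of 14 alternatives. Those that left out a library or used the percent of *miR-107* in the pair could not lose it, because the breeds do not overlap. Restricted to libraries of shared depth, chosen after seeing the data, it was 0.42 (exact permutation test, p = 0.0571), with fewer libraries.

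Relative to *miR-92a* alone, *miR-103* passed at -0.59 and *miR-107* turned to -0.14, and relative to *miR-191* alone *miR-103* turned to 0.15 and *miR-107* reached 0.60, as the controls differ in sign. Without each library in turn, *miR-107* relative to the controls was between 0.12 and 0.34, highest without CNLX15. The correlation of the members passed with deviations from breed means (r = 0.821, exact permutation p = 0.00326). Pooled over breeds, it passed with library size only (r = 0.670, permutation p = 0.0119) and relative to the controls (r = 0.796, permutation p = 0.00326). In these pooled settings both members are divided by the same total or control mean, which can raise r by itself. The log2FC of *miR-26a* turned to -0.38 with the epithelial covariate and ranged from -0.068 to 0.24 without each library.

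The number of miRNAs past the threshold, 2, was 20 with DESeq2, 1 with library size only, and 0 with RLE, upper quartile or the epithelial covariate (82, 78 and 40 at an unadjusted p of 0.05 in edgeR). It ranged from 0 to 6 without each library, and the cause was not tested. No paired analysis was possible because the breeds share no replicate numbers in the labels. Between the breeds, the counting intervals of the share of *miR-107* overlap only for CNLX9 and CNLX23. The part of depth in the breed difference of the ratio was not tested beyond the comparisons given above.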
